A study of Mus musculus with 11 samples.

Results

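The genes described here encode the aminoacyl-tRNA synthetases of mouse epiblast stem cells (EpiSCs), the pluripotent stem cells derived from the post-implantation epiblast. Members were found by gene symbol and not by their measured values (the letter of an amino acid followed by ars, with an optional 1, 2 or l, plus Farsa and Farsb), which found 52 probes of 30 genes among 15718 probes of 9201 named genes. Each gene is represented by its brightest probe, the 1 whose average across the 11 arrays is highest. Of the 30 genes, 16 encode cytosolic enzymes, 12 encode mitochondrial enzymes, and Gars and Kars each supply the enzyme of both compartments. Eprs, the joint glutamyl- and prolyl-tRNA synthetase, falls outside the symbol rule and is given with the associated genes.

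Total RNA of EpiSCs of strain 129xMF1 was measured on 11 Illumina arrays in 4 groups. GY118F EpiSCs carry the GY118F transgene, which encodes a chimeric receptor that binds granulocyte colony-stimulating factor (G-CSF) outside the cell and signals through a mutant gp130 tail inside it, and control EpiSCs are labelled without it. All groups grew in N2B27 medium with activin and Fgf, so that no group shows the cells without these factors. The unstimulated groups held 3 GY118F and 3 control arrays, and the groups given G-CSF for 3 hours held 2 GY118F and 3 control arrays. The promoter that drives the transgene, and whether a line is 1 clone, are not given in the sources used here, and replicates may share a culture, since no label says otherwise, in which case p-values reflect technical spread.

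Aminoacyl-tRNA synthetases join each amino acid to its tRNA, the step that supplies the ribosome. The mitochondrion translates its own few proteins with tRNAs of its own, which are charged by enzymes that are also encoded in the nucleus, mostly by separate genes. In mammalian cells short of amino acids or under endoplasmic reticulum stress, the transcription factor ATF4 raises many genes of amino acid synthesis and transport, and several cytosolic synthetases are among its known targets. ATF4 acts with C/EBP family partners at elements of the form TGATGNAA.

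This motif was looked for on both strands of RefSeq promoters of build GRCm38.p6, each covering 250 bases before and 50 after the gene start, which were found for 22 of the 30 genes. The letters TGATGNAA, or TTNCATCA on the other strand, occurred in a promoter of 5 of the 22 genes (22.7%). Of all 27025 genes with a promoter, 1219 held them (4.51%). They occurred for 4 of 9 cytosolic genes, 1 of 2 genes of enzymes shared by both compartments, and 0 of 11 mitochondrial genes. Among the 6 genes with the largest mean fall after G-CSF, 4 had a promoter, of which those of Aars and Gars held the letters and those of Sars and Mars1 did not. Aars lies at chr8:111033592-111033891 on the plus strand with matches that start at -112 and +10 from the gene start. Gars lies at chr6:55037751-55038050 on the plus strand with a match at -30. Ears2, at chr7:122067037-122067336 on the minus strand, is shown for contrast as the gene with the smallest mean change among those with a promoter, no match and a value above the median of all probes. Sequences run in the direction of the gene, and capitals mark the matches.
Aars promoter: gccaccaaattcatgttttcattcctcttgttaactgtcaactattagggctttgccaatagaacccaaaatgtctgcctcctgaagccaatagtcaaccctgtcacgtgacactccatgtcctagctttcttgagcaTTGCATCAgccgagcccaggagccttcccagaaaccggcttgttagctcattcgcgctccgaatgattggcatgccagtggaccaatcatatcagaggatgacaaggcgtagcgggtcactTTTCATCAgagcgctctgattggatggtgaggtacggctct
Gars promoter: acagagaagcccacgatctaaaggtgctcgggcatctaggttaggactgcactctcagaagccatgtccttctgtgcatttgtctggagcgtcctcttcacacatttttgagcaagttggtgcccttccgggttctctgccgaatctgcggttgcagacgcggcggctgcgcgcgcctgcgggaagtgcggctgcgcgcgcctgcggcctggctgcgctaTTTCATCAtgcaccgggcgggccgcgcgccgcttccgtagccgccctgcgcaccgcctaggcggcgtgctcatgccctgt
Ears2 promoter: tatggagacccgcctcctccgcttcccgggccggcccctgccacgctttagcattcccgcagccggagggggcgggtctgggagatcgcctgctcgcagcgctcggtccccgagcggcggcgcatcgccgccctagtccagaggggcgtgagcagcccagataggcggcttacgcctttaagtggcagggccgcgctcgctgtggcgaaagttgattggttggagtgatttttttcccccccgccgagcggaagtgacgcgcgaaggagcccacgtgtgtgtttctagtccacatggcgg
The other matches are shown in windows of 30 bases, at chr13:49681880-49682179 (plus strand, match at +8) for Iars, chr15:11399609-11399908 (minus strand, match at -15) for Tars and chr4:129189653-129189952 (plus strand, match at +4) for Yars, where the coordinates are those of the whole promoter.
Iars window: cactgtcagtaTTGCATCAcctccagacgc
Tars window: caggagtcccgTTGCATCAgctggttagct
Yars window: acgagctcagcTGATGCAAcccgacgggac
Of these 5 genes, Aars, Gars and Iars were called lower after G-CSF in both lines, and Tars and Yars in neither. Among genes with a promoter, the motif was present for 3 of 9 called lower in both lines and for 2 of 13 of the others. Among those others, Yars, Aars2, Wars2 and Farsa had mean values below the 25th percentile of all values, 7.66, where a fall could be missed. A match is a description of the letters and not a binding site, and the measurements here bear on RNA and not on binding.

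All 8 EpiSC markers looked for were measured, with mean values between 8.67 and 13.6. Of the markers of fibroblasts (2 of 8), haematopoietic cells (2 of 6), endoderm (3 of 6) and neural cells (2 of 6), 9 were measured, with mean values between 7.34 and 8.81. Levels of different probes do not share a scale, so these values do not by themselves set the cell type. Of these 9, 3 fell and 3 rose with G-CSF in GY118F and 2 fell and 1 rose in control EpiSCs (limma, adjusted p under 0.05). Of the 8 EpiSC markers, 1 fell and 5 rose in GY118F, and 0 fell and 3 rose in control EpiSCs. Among all features 21.9% fell and 17.8% rose in GY118F, and 22.6% and 19.5% in control EpiSCs. The part of these markers in the results was not tested. The deposited log2 values ran from 7.11 to 15.22 with a median of 8.16. Socs3, an early target of this receptor's signal, rose by 3.00 on the log2 scale in GY118F EpiSCs with G-CSF and fell by 0.17 in control EpiSCs. Arrays of a group correlated at 0.994 to 0.998 across the 11208 features tested, which hold only the brightest probe of each named gene and the probes without a single symbol.

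After 3 hours of G-CSF more cytosolic synthetases were lower than higher, in GY118F EpiSCs and also in the control line. In GY118F EpiSCs 13 of 30 synthetase genes fell and 3 rose, against 21.9% and 17.8% of the 11208 features tested (limma, adjusted p under 0.05), so that 16 of 30 were called where 39.8% of all features were. In control EpiSCs 14 fell and 3 rose, against 22.6% and 19.5% of all features (17 of 30 called, against 42.1%). Falls of over 1.4-fold were seen for 6 genes in GY118F and 7 in control EpiSCs, against 4.21% and 4.22% of all features. Rises of that size were seen for 1 gene, Mars2, in GY118F EpiSCs and for 0 in control EpiSCs, against 4.18% and 3.22%. The median change over the 30 genes was -0.14 in GY118F and -0.15 in control EpiSCs, and over all features it was -0.0077 and 0.0012. In bulk RNA, fewer cells with the transcript and less transcript in each cell cannot be told apart, and, with no culture labelled as handled for 3 hours without G-CSF, the cytokine and the handling that went with it cannot be told apart either.

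Seryl-tRNA synthetase, encoded by Sars, had the largest fall of the family. Sars read 10.47, 10.35 and 9.92 in unstimulated GY118F EpiSCs and 9.30 and 9.26 with G-CSF, and 10.38, 10.35 and 10.44 in unstimulated control EpiSCs and 9.45, 9.36 and 9.32 with G-CSF. All 5 stimulated arrays lay below all 6 unstimulated ones, and replicate 3 of the unstimulated GY118F arrays stood lowest in its group. The change was -0.97 ± 0.12 (SE) in GY118F EpiSCs, a 1.96-fold fall (limma adjusted p = 4.3e-05), and -1.01 ± 0.11 in control EpiSCs, a 2.02-fold fall (adjusted p = 1.0e-05).

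Mars1, the methionyl-tRNA synthetase of the cytosol, and Aars, the alanyl-tRNA synthetase, changed by almost equal amounts in each line. Mars1 read 10.94, 10.83 and 10.79 in unstimulated GY118F EpiSCs and 10.21 and 10.29 with G-CSF, against 10.95, 11.01 and 10.80 in unstimulated and 10.36, 10.30 and 10.29 in stimulated control EpiSCs. Aars, whose promoter with 2 matches is printed above, read 12.03, 11.91 and 11.88 in unstimulated and 11.47 and 11.29 in stimulated GY118F EpiSCs, and 12.07, 12.08 and 12.17 in unstimulated and 11.62, 11.47 and 11.48 in stimulated control EpiSCs. For both genes the stimulated and unstimulated arrays did not overlap in either line. Mars1 fell by 0.61 ± 0.07 in GY118F EpiSCs (limma adjusted p = 1.95e-05) and by 0.61 ± 0.06 in control EpiSCs (adjusted p = 6.59e-06) on the log2 scale. Aars fell by 0.56 ± 0.07 (adjusted p = 5.38e-05) and by 0.58 ± 0.06 (adjusted p = 1.43e-05) on the same scale.

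Nars and Lars, which charge the tRNAs for asparagine and leucine, were lower with G-CSF in both lines. Nars read 10.27, 10.26 and 10.18 in unstimulated and 9.69 and 9.58 in stimulated GY118F EpiSCs, and 10.37, 10.33 and 10.41 in unstimulated and 9.82, 9.90 and 9.88 in stimulated control EpiSCs. Lars read 13.24, 13.11 and 13.05 in unstimulated and 12.64 and 12.65 in stimulated GY118F EpiSCs, and 13.37, 13.37 and 13.38 in unstimulated and 12.85, 12.76 and 12.78 in stimulated control EpiSCs. Within each treatment every GY118F array of these genes lay below every control array, and within each line every stimulated array lay below every unstimulated one. The G-CSF change of Nars was -0.60 ± 0.05 in GY118F (limma adjusted p = 3.43e-06) and -0.50 ± 0.05 in control EpiSCs (adjusted p = 4.52e-06). That of Lars was -0.49 ± 0.06 (adjusted p = 3.22e-05) and -0.58 ± 0.05 (adjusted p = 3.01e-06).

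Gars, the glycyl-tRNA synthetase of both compartments, fell in both lines on its brighter probe. It read 14.26, 14.16 and 14.10 in unstimulated and 13.79 and 13.60 in stimulated GY118F EpiSCs, and 14.40, 14.22 and 14.37 in unstimulated and 13.88, 13.87 and 13.71 in stimulated control EpiSCs. The groups did not overlap in either line, and the changes were -0.48 ± 0.08 (limma adjusted p = 3.96e-04) and -0.51 ± 0.07 (adjusted p = 8.71e-05). A second Gars probe, with a mean value of 7.87, changed by 0.07 and -0.08 and was not called in either line, and with the mean of both probes Gars was not called in GY118F EpiSCs (-0.21, adjusted p = 0.0874). Kars, the lysyl-tRNA synthetase of both compartments, was not called on its brighter probe, with changes of -0.08 ± 0.06 and 0.03 ± 0.05. Its dimmer probe, with a mean value of 9.15, changed by -0.22 in GY118F (limma adjusted p = 0.0381) and by -0.28 in control EpiSCs (adjusted p = 0.00481).

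**Figure D1:**
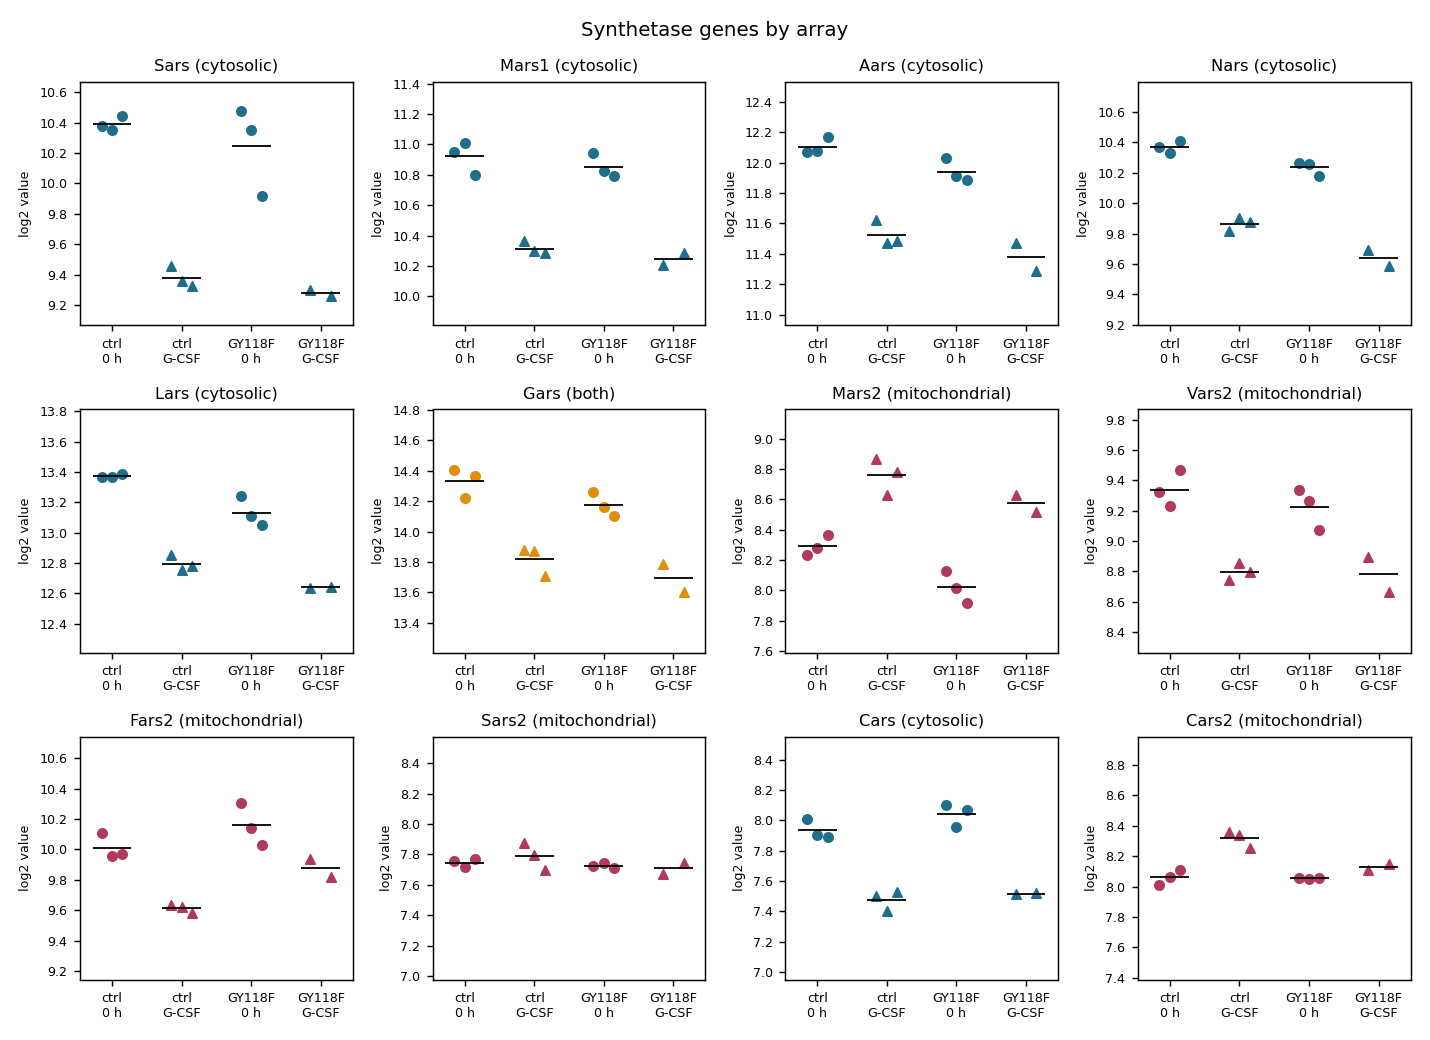
Deposited log2 value (vertical axis, which does not start at 0) of 12 synthetase genes in each array, by line and treatment. Circles are unstimulated arrays, triangles arrays with G-CSF for 3 hours, and bars group means. Sars in the 5 stimulated arrays sits between 9.26 and 9.45, below all unstimulated arrays, and Mars2 is the gene whose stimulated arrays all sit above the unstimulated ones of the same line by the widest margin.

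The other cytosolic enzymes ranged from clear falls to a rise. Cars, for cysteine, read 8.10, 7.95 and 8.07 in unstimulated and 7.52 and 7.52 in stimulated GY118F EpiSCs, and 8.01, 7.91 and 7.89 in unstimulated and 7.50, 7.40 and 7.53 in stimulated control EpiSCs. Its groups did not overlap, and it fell by 0.52 ± 0.06 in GY118F (limma adjusted p = 2.85e-05) and by 0.46 ± 0.05 in control EpiSCs (adjusted p = 2.87e-05) on the log2 scale. All its stimulated arrays lay below the 25th percentile of all values, 7.66. Its dimmer probe changed by -0.30 and -0.35. Over the alternatives its smallest changes were -0.38 in GY118F and -0.27 in control EpiSCs. Iars, for isoleucine, fell by 0.42 ± 0.07 and by 0.44 ± 0.07 on the same scale. Farsb, the beta subunit of phenylalanyl-tRNA synthetase, fell by 0.24 and by 0.19, and its call was lost in GY118F EpiSCs without replicate 1 of the unstimulated (adjusted p = 0.0576) or replicate 3 of the stimulated arrays (adjusted p = 0.135). In control EpiSCs the Farsb call was lost without unstimulated replicates 1 and 3 or stimulated replicates 1 and 3, each left out alone, with adjusted p between 0.0892 and 0.0991. Qars, for glutamine, fell by 0.28 in GY118F EpiSCs (adjusted p = 0.00312) and was not called in control EpiSCs at -0.14. Its dimmer probes were called lower in control EpiSCs too, at -0.12 (limma adjusted p = 0.0374) and -0.17 (0.0214), with all probes as features. The mean of its probes was also called lower there, at -0.14 (limma adjusted p = 0.0107). Wars, for tryptophan, was called in control EpiSCs alone, at -0.20 with an adjusted p of 0.0497, and the call was lost without replicates 1 and 3 of the unstimulated or 2 and 3 of the stimulated GY118F arrays, replicate 3 of the unstimulated control arrays, or replicates 1 and 3 of the stimulated control arrays, each left out alone (adjusted p from 0.0542 to 0.221). Vars, Tars, Yars and Hars, for valine, threonine, tyrosine and histidine, were called in neither line, with changes from -0.18 to 0.06. A lower call was gained by Vars in GY118F EpiSCs without replicate 1 of the unstimulated GY118F arrays (adjusted p = 0.0425) and by Qars and Vars in control EpiSCs without replicate 2 of the stimulated control arrays (0.0394 and 0.0213). Tars gained one in control EpiSCs without replicate 3 of the stimulated control arrays (0.0389), and Qars without replicate 3 of the unstimulated GY118F arrays (0.0495).

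Rars, the arginyl-tRNA synthetase, moved the other way. Rars read 10.66, 10.68 and 10.58 in unstimulated and 10.86 and 11.03 in stimulated GY118F EpiSCs, and 10.69, 10.80 and 10.84 in unstimulated and 11.04, 10.99 and 11.05 in stimulated control EpiSCs. The groups did not overlap in either line, and Rars rose by 0.30 ± 0.06 in GY118F (limma adjusted p = 0.00213) and by 0.25 ± 0.06 in control EpiSCs (adjusted p = 0.00378). Farsa, the alpha subunit of phenylalanyl-tRNA synthetase, was called higher in GY118F EpiSCs alone at 0.15 (adjusted p = 0.0267), but its mean value of 7.44 lies below the 25th percentile of all values, 7.66. With values under that percentile set to it, the change of Farsa was 0, and its call was also lost without replicate 1 of the unstimulated (adjusted p = 0.0765) and without replicate 2 (0.0957) or 3 (0.0936) of the stimulated GY118F arrays. In control EpiSCs Farsa, at 0.11, was called higher only without replicate 3 of the stimulated control arrays among the arrays left out (adjusted p = 0.0483). Among the other alternatives it was called higher there with a second quantile normalization (limma adjusted p = 0.0395) and trend and robust moderation (0.0271). The same held with array weights (0.0180), where its GY118F call was lost (0.0613), and with the mean of a gene's probes (0.0346). Aars2, Yars, Hars and Wars2 lay below the same percentile and were called in neither line.

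Counted by compartment, 9 of 16 cytosolic genes fell and 2 rose in GY118F EpiSCs, with a median change of -0.26, and in control EpiSCs 9 fell and 1 rose, with a median of -0.19. Of all features, 21.9% fell and 17.8% rose in GY118F and 22.6% and 19.5% in control EpiSCs. Of 12 mitochondrial genes 3 fell and 1 rose in GY118F EpiSCs, with a median of -0.03, and in control EpiSCs 4 fell and 2 rose, with a median of -0.02. Above the median level of all features, 26.8% of features fell and 23.0% rose in GY118F, and 27.3% and 25.9% in control EpiSCs. Of the 11 cytosolic genes above that level, 8 fell and 1 rose in each line, with medians of -0.42 in GY118F and -0.44 in control EpiSCs. Of the 7 such mitochondrial genes 3 fell in GY118F and 4 in control EpiSCs and 1 rose in each, with medians of -0.09 and -0.14. These counts describe the members and were not tested as sets.

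**Figure D2:**
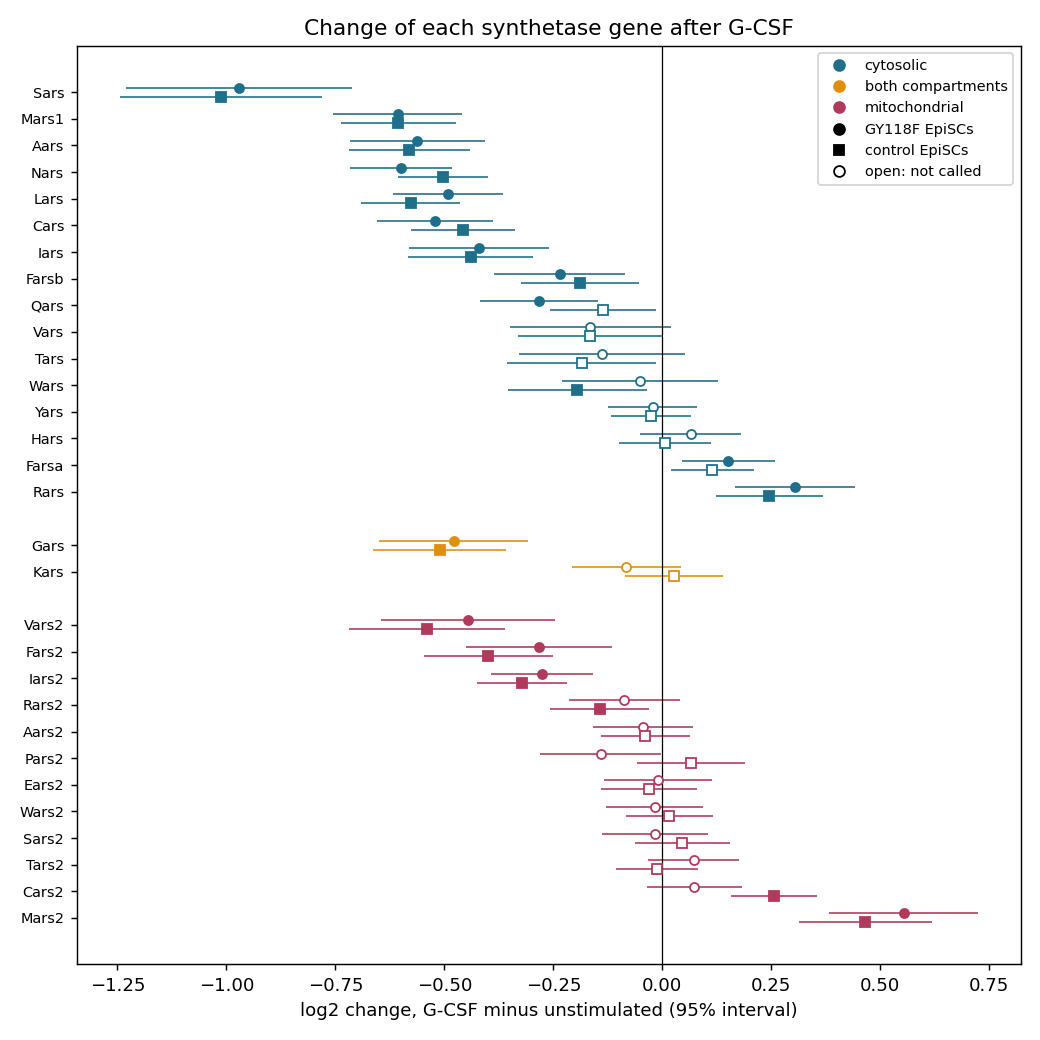
Change after G-CSF (horizontal axis, log2, stimulated minus unstimulated) of each of the 30 synthetase genes, with its 95% interval, grouped by compartment. Circles are GY118F EpiSCs, squares control EpiSCs, and open symbols genes not called. The change of Sars is near -1 in both lines, most mitochondrial genes sit near 0, and Mars2 sits at 0.55 and 0.47.

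The mitochondrial enzymes did not move as a block. Vars2, the valyl-tRNA synthetase of mitochondria, fell by 0.45 ± 0.09 in GY118F (limma adjusted p = 0.00199) and by 0.54 ± 0.08 in control EpiSCs (adjusted p = 1.93e-04) on the log2 scale. It read 9.34, 9.27 and 9.08 in unstimulated and 8.90 and 8.66 in stimulated GY118F EpiSCs, and 9.32, 9.23 and 9.47 in unstimulated and 8.74, 8.86 and 8.80 in stimulated control EpiSCs, without overlap in either line. Iars2, for isoleucine, fell by 0.28 and by 0.32 on the log2 scale. The platform annotation gives Vars and Vars2 overlapping synonyms, and their probes were assigned by its gene symbol.

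Fars2, the mitochondrial phenylalanyl-tRNA synthetase, read 10.30, 10.14 and 10.03 in unstimulated and 9.93 and 9.82 in stimulated GY118F EpiSCs. In control EpiSCs Fars2 read 10.11, 9.95 and 9.97 unstimulated and 9.63, 9.62 and 9.58 with G-CSF. Every stimulated array lay below the unstimulated arrays of its line. The falls were 0.28 ± 0.08 (limma adjusted p = 0.0105) and 0.40 ± 0.07 (adjusted p = 4.86e-04), and the call in GY118F EpiSCs was lost without replicate 3 of the stimulated arrays (adjusted p = 0.102). Rars2 was called lower in control EpiSCs alone (-0.14, adjusted p = 0.0425), and the call was lost without replicate 2 of the unstimulated GY118F arrays, replicates 1 and 3 of the unstimulated control arrays or replicates 1 and 2 of the stimulated control arrays, each left out alone (adjusted p from 0.0512 to 0.169). It was also lost with the replicate block (adjusted p = 0.0610), under which Qars was called lower in control EpiSCs in its place (adjusted p = 0.0449).

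Mars2, the mitochondrial methionyl-tRNA synthetase, rose in both lines while its cytosolic partner Mars1 fell. Mars2 read 8.13, 8.02 and 7.92 in unstimulated and 8.63 and 8.52 in stimulated GY118F EpiSCs, and 8.23, 8.28 and 8.36 in unstimulated and 8.86, 8.63 and 8.78 in stimulated control EpiSCs. All stimulated arrays lay above all unstimulated ones, whichever the line. The rise was 0.55 ± 0.08 in GY118F (1.47-fold, limma adjusted p = 1.27e-04) and 0.47 ± 0.07 in control EpiSCs (1.38-fold, adjusted p = 1.75e-04). A second Mars2 probe, with a mean value of 8.03, rose by 0.40 and 0.42.

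Cars2, the mitochondrial cysteinyl-tRNA synthetase, read 8.06, 8.05 and 8.06 in unstimulated and 8.11 and 8.15 in stimulated GY118F EpiSCs, and 8.01, 8.06 and 8.11 in unstimulated and 8.36, 8.34 and 8.25 in stimulated control EpiSCs. Its stimulated arrays lay above the unstimulated ones in control EpiSCs and just above them in GY118F EpiSCs. It rose by 0.26 ± 0.05 in control EpiSCs (limma adjusted p = 5.76e-04) and was not called in GY118F EpiSCs at 0.07 ± 0.05, and a dimmer Cars2 probe was called in neither line. Sars2, the mitochondrial seryl-tRNA synthetase, read between 7.67 and 7.88 in all 11 arrays, so that its groups overlapped, and it was not called at -0.02 and 0.05. Aars2, Ears2, Pars2, Tars2 and Wars2, for alanine, glutamate, proline, threonine and tryptophan, were called in neither line, with changes from -0.14 to 0.07.

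For 10 amino acids both a cytosolic and a mitochondrial enzyme were measured among the genes of the symbol rule. The cytosolic change lay below the mitochondrial one in both lines for 7 of the 10, and above it for phenylalanine, valine and arginine. Glutamate and proline are not among the 10, since their cytosolic enzyme, Eprs, falls outside the symbol rule. Eprs changed by -0.30 in GY118F and -0.25 in control EpiSCs. Both changes lay below those of Ears2 (-0.009 and -0.030) and Pars2 (-0.14 and 0.07). The widest gap, cytosolic minus mitochondrial change, was that of methionine, at -1.16 in GY118F and -1.07 in control EpiSCs. Serine followed at -0.95 and -1.06, cysteine at -0.60 and -0.71, and alanine at -0.52 and -0.54. For valine the gap was 0.28 and 0.37, for arginine 0.39 in each line, and for phenylalanine, with the mean of Farsa and Farsb, 0.24 and 0.36. The gaps compare changes and not levels, since probes of different genes do not share a scale, and they carry no test. Aars2 (mean value 7.48), Wars2 (7.50) and Farsa (7.44) lay below the 25th percentile of all values, 7.66. Sars2 (7.75) and Cars (7.76) lay just above it. Changes of such dim probes may be understated, which limits the gaps of alanine, tryptophan, phenylalanine, serine and cysteine.

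**Figure D3:**
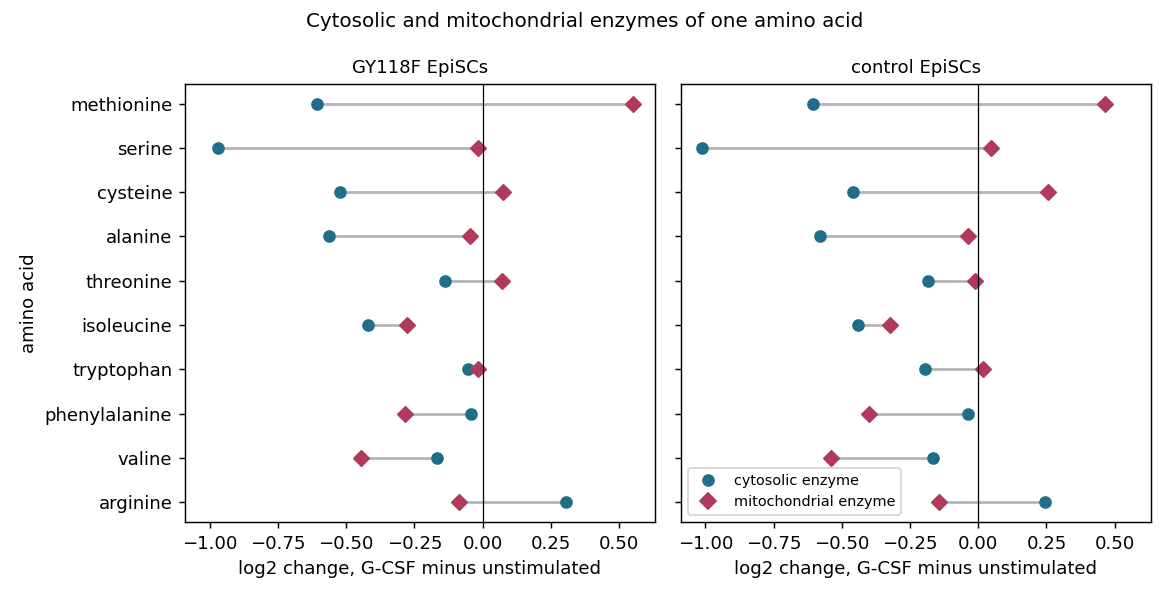
Change after G-CSF (horizontal axis, log2) of the cytosolic enzyme (circle) and the mitochondrial enzyme (diamond) for each of 10 amino acids, in GY118F EpiSCs on the left and control EpiSCs on the right. The line between the symbols is the gap, which is widest for methionine, at -1.16 and -1.07, and runs the other way for phenylalanine, valine and arginine. Mean values of Aars2, Wars2 and Farsa lie below the 25th percentile of all values, where a change may be understated.

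Several cytosolic synthetases are held in the multisynthetase complex, together with the scaffold proteins Aimp1, Aimp2 and Eef1e1. Of 6 complex members measured here (Iars, Kars, Lars, Mars1, Qars and Rars), 4 fell and 1 rose in GY118F EpiSCs and 3 fell and 1 rose in control EpiSCs. Of the 12 other cytosolic or shared enzymes 6 fell and 1 rose, and 7 fell and 0 rose. Among all features 21.9% fell and 17.8% rose in GY118F and 22.6% and 19.5% in control EpiSCs. Eprs, also of the complex, changed by -0.30 ± 0.08 in GY118F (limma adjusted p = 0.0100) and -0.25 ± 0.07 in control EpiSCs (adjusted p = 0.0144). Aimp2 rose by 0.40 and 0.41, and Eef1e1 was not called at 0.27 and 0.14. The genes of the complex held both falls and rises among their calls in each line.

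No detectable difference between the lines was found in the responses of the 30 genes. Of the 30, 12 were called lower in both lines and 2, Rars and Mars2, higher in both, against 15.5% and 12.3% of all features. Calls were in neither line for 11 genes, in GY118F EpiSCs alone for Farsa and Qars, in control EpiSCs alone for Cars2, Rars2 and Wars, and in opposite directions for 0. The dimmer Qars probes were called lower in both lines. Across the 30 genes the changes in the lines had a Pearson correlation of 0.963 and a Spearman correlation of 0.919, and across all features the Pearson correlation was 0.754; genes share their arrays, so these are descriptions. Stimulated arrays did not overlap with, and lay below, unstimulated ones for 18 genes in GY118F and 15 in control EpiSCs (30.6% and 28.7% of all features), and lay above them for 5 and 4 (26.6% and 24.9%).

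The difference between the G-CSF changes of the lines was tested directly, and 0 of 30 genes were called, against 6.0% of all features (2.14% lower and 3.85% higher). At an unadjusted p under 0.05 there were 2, Cars2 at -0.18 (limma adjusted p = 0.158) and Pars2 at -0.21 (adjusted p = 0.218), against 17.9% of all features. The 95% intervals of the 30 differences ran from -0.392 (Pars2) to 0.390 (Sars) at their extremes. The widest interval was that of Sars, whose difference was 0.04 with bounds of -0.31 and 0.39. The study's own criterion, a rise of over 1.4-fold at p under 0.01 in GY118F EpiSCs without a change in control EpiSCs, read on adjusted p, was met by 0 of 30 genes and by 1.07% of all features.

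The lines differed for some synthetases before any G-CSF. In unstimulated cells 8 of 30 were lower in GY118F than in control EpiSCs and 0 were higher, against 16.5% and 16.7% of all features (33.2% in either direction). Vars differed most, reading 9.64, 9.89 and 9.83 in GY118F against 10.24, 10.22 and 10.12 in control EpiSCs, a difference of -0.41 ± 0.08 (limma adjusted p = 0.00112). The others were Mars2 (-0.27), Lars (-0.24), Kars (-0.15), Ears2 (-0.14), Iars2 (-0.14), Tars2 (-0.14) and Nars (-0.13). The Nars difference lay at the threshold (limma adjusted p = 0.0496) and was not called with all probes as features (adjusted p = 0.0521). The count was 3 without replicate 3 of the unstimulated GY118F arrays and 4 without replicate 1 of the unstimulated control arrays, and it was 5 without each of the other 4 unstimulated arrays in turn. Among 8 EpiSC markers, 6 were lower and 1 was higher in unstimulated GY118F than in control EpiSCs (median -1.15), and of 13 ATF4 regulators and stress targets 8 were lower and 1 was higher (median -0.25); their part in the differences of the synthetases was not tested.

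With G-CSF, 4 of 30 were lower in GY118F than in control EpiSCs and 1 was higher, against 14.4% and 15.6% of all features (29.9% in either direction). Vars read 9.58 and 9.66 in GY118F against 9.95, 10.18 and 9.95 in control EpiSCs, again a difference of -0.41 (adjusted p = 0.00282, limma). Kars, at 10.15 and 10.21 against 10.48, 10.36 and 10.47, was lower by 0.26 (adjusted p = 0.00472), Nars differed by -0.23 and Cars2 by -0.19, and Fars2 was the 1 higher at 0.26 (adjusted p = 0.0202). The lower count was 2, and the higher count 0, without replicate 2 of the stimulated GY118F arrays, and the higher count was also 0 without replicate 3 of the stimulated control arrays.

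Where a gene had several probes, these mostly gave the same call. Of 17 genes with several probes 10 had the same call on every probe in both lines, 7 (Cars2, Farsb, Gars, Kars, Qars, Rars2 and Wars) differed in a line, and 0 had opposite calls. The size of a change depended on the probe: a second Sars probe with a mean value of 8.12 changed by -0.51 and -0.57, where the brighter one changed by -0.97 and -1.01. This second Sars probe was also lower in GY118F than in control EpiSCs before stimulation (-0.48, limma adjusted p = 1.78e-05, all probes as features), which the brighter probe did not show (-0.14). A second Mars1 probe changed by -0.38 and -0.40.

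**Figure D4:**
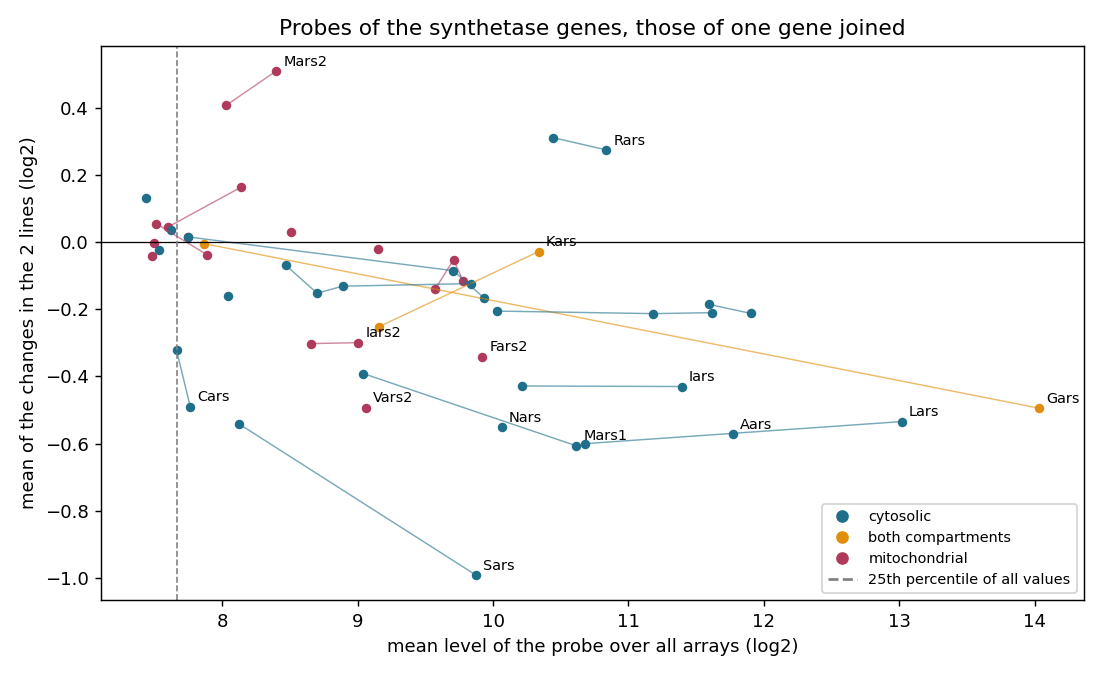
Mean of the changes in the 2 lines (vertical axis, log2) against the mean level of the probe over all arrays (horizontal axis, log2) for the 52 synthetase probes, with probes of a gene joined by a line. The dashed line is the 25th percentile of all values, 7.66. The dimmer Gars and Sars probes sit nearer to 0 than the brighter ones, and both Mars2 probes sit above 0.4.

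Known genes of the ATF4 response were lower in the same comparisons. Of 13 measured ATF4 regulators and stress targets, 12 fell in GY118F and 13 in control EpiSCs, with median changes of -0.94 and -1.20, against 21.9% and 22.6% of all features called lower. In the difference between the lines 4 of the 13 were called, all higher, against 3.85% of all features: Nupr1 (1.16), Chac1 (0.96), Cebpb (0.92) and Trib3 (0.55), of which Cebpb was not called in GY118F EpiSCs and the others fell less there than in control EpiSCs. Atf4 itself fell by 0.99 ± 0.12 in GY118F (limma adjusted p = 4.44e-05) and by 1.24 ± 0.11 in control EpiSCs (adjusted p = 2.48e-06) on the log2 scale. Of 13 measured genes of amino acid synthesis and transport, from a list of 18, 11 fell in GY118F and 12 in control EpiSCs, with medians of -0.70 and -0.57, and Slc1a4 was called in the difference between the lines (0.39, limma adjusted p = 0.00365). Asns, asparagine synthetase, fell by 0.97 and 0.95, and Phgdh, the first enzyme of serine synthesis, by 0.65 and 0.80. Among genes with a promoter, the letters TGATGNAA or their complement were present for 4 of 12 of the first list and 3 of 11 of the second. The share over all genes with a promoter was 4.51%. Both lists were chosen with earlier results of these data known, and the part of ATF4 in the changes of the synthetases was not tested.

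Calls among other genes of translation went in both directions, in shares near those of all features for the longest of the lists. Of 16 measured genes associated with the synthetases or with tRNA maturation, from a list of 21, 4 fell and 3 rose in GY118F EpiSCs and 3 fell and 4 rose in control EpiSCs, where 21.9% and 17.8%, and 22.6% and 19.5%, of all features did. Elac2, which trims the 3′ ends of tRNA precursors, rose by 0.50 and 0.59, and Trnt1, which adds the terminal CCA to tRNAs, by 0.24 and 0.38. Dtd2, which removes wrongly joined amino acids from tRNA, changed by -0.30 and -0.31. Of 8 cytosolic elongation and release factors, Eef2 fell (-0.41 and -0.33) and Eif5a and Gspt1 rose in both lines. Of 9 mitochondrial translation factors, Mrrf, Mtrf1 and Tsfm fell in both lines, Gfm1 rose in control EpiSCs, and 0 rose in GY118F EpiSCs.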

How the data were processed

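RNA was extracted with Qiagen's RNeasy kit and biotin-labelled, per the labels' protocols. The submitters' processing notes name lumi for the authors' deposited log2 values; its version and transformation are not given in the sources used here. After sorting, no log2 value differed between arrays by more than 0.00116, as quantile normalization leaves it, so differences in total RNA are not in the values. No detection p-value was used.

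Probes were named through GEO's platform annotation (13711 with 1 symbol, 5 with several, 2002 unnamed). The brightest probe stood for each of 9201 symbols, and probes without a single symbol stayed, giving 11208 features. All 11 arrays were fitted with limma 3.58.1 (lmFit, eBayes) under R 4.3.3, with no block for replicates; p-values are two-sided and Benjamini-Hochberg adjusted over the 11208 features, with a threshold of 0.05. The fit was tested on simulated data.

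Array values are given for the 6 cytosolic or shared and 3 mitochondrial genes with the largest mean G-CSF change and the 3 most unequal pairs, and others where a result turns on them. Members, as a family, and lists were chosen with earlier results of these data known. Stimulated GY118F arrays carry numbers 2 and 3 from their source names (titles say 1 and 2). Stimulated control arrays carry the numbers of their titles, since their source names all say replicate 1. Alternatives were the replicate block, the arrays fitted, probes, dim features, floor, normalization, moderation, array weights, threshold and each array left out.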

Additional observations from a re-analysis of the deposited data

Results flagged for a closer look

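The test of the difference between the lines was looked at for the synthetases, their associated genes, Atf4, Asns and Socs3. Of these, Aimp1 and Socs3 were called. Other genes were called too, among them Nupr1 and Slc1a4 above, and 6.0% of all features. Aimp1, a scaffold of the multisynthetase complex, changed by -0.04 with G-CSF in GY118F and by 0.20 in control EpiSCs, a difference of -0.25 ± 0.07 (limma adjusted p = 0.0479). That value lies just under the threshold of 0.05, and Aimp1 was not recomputed under the alternatives. It read 11.22, 11.26 and 11.25 in unstimulated and 11.18 and 11.22 in stimulated GY118F EpiSCs, and 11.25, 11.33 and 11.25 in unstimulated and 11.43, 11.49 and 11.52 in stimulated control EpiSCs, so the stimulated control arrays stood above the other 8. Socs3, used to check the response to the receptor, had a difference of 3.18.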

How the results depend on the processing

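Over 22 alternatives, 12 of 16 G-CSF calls in GY118F EpiSCs (all but Fars2, Farsa, Farsb and Gars) and 14 of 17 in control EpiSCs (all but Farsb, Rars2 and Wars) were kept in every one that gave a value (Cars and Cars2 gave none with the dimmer features left out, which leaves 21), and 365 of 394 recomputed summary values kept their direction and stayed within the limits used. With the mean of its probes Kars was called lower in both lines. It turned to -0.129 in control EpiSCs (limma adjusted p = 0.0264) and was -0.151 in GY118F EpiSCs (adjusted p = 0.0230). For the difference between the lines the lowest adjusted p of a member over the alternatives was 0.0754.

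With the dimmer 50% of features left out, and so fewer members, the medians after G-CSF were -0.42 (cytosolic) and -0.087 (mitochondrial) in GY118F and -0.44 and -0.14 in control EpiSCs. With array weights the cytosolic median in control EpiSCs was -0.16. Leaving out each array gave -0.29 to -0.24 for the cytosolic median in GY118F and -0.25 to -0.16 in control EpiSCs. The count of members lower in unstimulated GY118F than control EpiSCs was 4 with only the groups compared or without the dimmer features, 3 with trend and robust moderation or an adjusted p under 0.01, and 3 to 8 without each array; the higher count was 0 to 1 without each array. In stimulated cells the lower count was 7 with the mean of probes and 2 to 5 without each array, and the higher count was 0 with the floor or an adjusted p under 0.01 and 0 to 1 without each array. The cause of these shifts was not tested.

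Whether the replicate numbers pair the samples was not settled. Deviations of 15 same-numbered pairs correlated at -0.47 to 0.54, with 7 above 0.1, and pairs with different numbers were not compared. With the replicate block 13 members fell and 3 rose in GY118F EpiSCs, 14 fell (Qars in place of Rars2) and 3 rose in control EpiSCs, 0 differed between the lines, and 6 and 4 were lower in unstimulated and stimulated GY118F than control EpiSCs; with the block on the numbers in the titles, added after seeing the data, 16 fell in control EpiSCs and 1 member was higher in unstimulated GY118F EpiSCs. The number of arrays limits precision, and changes of dim probes may be understated.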
